A study of Homo sapiens with 6 samples.

Results

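The genes of 10 secreted factors that recruit or sustain myeloid cells were followed in MDA-MB-436 cells, namely the growth factor CSF1, the interleukin-1 cytokines IL1A and IL1B, the CXC chemokines CXCL1, CXCL2, CXCL3 and CXCL8, the CC chemokines CCL2 and CCL5, and the CX3C chemokine CX3CL1. The 10 genes were chosen by name, with earlier results of these data known, out of 37887 rows of the count table. Their differences between the groups are therefore given as a description, with no p-value, and where those that passed the threshold of the fit over all genes are counted, the count supports nothing. All 10 had at least 1 count in some library, and 8 of them were among the 15355 genes that passed the filter on low counts. CCL2 and CX3CL1 did not pass it.

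MDA-MB-436 is an established triple-negative breast cancer cell line with a BRCA1 mutation. All 6 libraries came from MDA-MB-436 cells with a stably inserted vector whose tetracycline-inducible hairpin (shRNA) targets MUC1, a transmembrane mucin that is overexpressed in many carcinomas. The 3 control libraries were from cells grown with 0.1% DMSO vehicle, and the 3 shMUC1 libraries were from cells grown with 500 ng/ml doxycycline, which switches on the hairpin. Only 1 hairpin sequence was used and no doxycycline-treated cells with another hairpin are compared here, so an effect of doxycycline itself and an effect of MUC1 silencing cannot be told apart. The sample titles name the controls as control shRNA, whereas the treatment labels give vehicle, and the treatment labels were followed. The treatment time for this line and the independence of the cultures are not given, so the errors and p-values measure the spread between these libraries.

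CSF1 binds the receptor CSF1R and supports the survival and differentiation of monocytes and macrophages. IL1A and IL1B share the receptor IL1R1 with its partner IL1RAP, which signals through MYD88 and IRAK kinases to NF-kB. NF-kB in turn is a well-known activator of CXCL1, CXCL2, CXCL3 and CXCL8, the chemokines that attract neutrophils through CXCR1 and CXCR2. Many cytokine transcripts carry AU-rich elements in their 3' UTR, to which decay factors such as ZFP36 (tristetraprolin) bind.

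Library totals ranged from 18678307 to 27825546 counts, with the lowest in shMUC1 replicate 3. Levels are given as CPM, counts per 1000000 counts after TMM scaling of the library size. The targeted gene MUC1 had 93, 84 and 102 counts in the control libraries and 72, 51 and 34 in the shMUC1 libraries (adjusted p = 0.00119, edgeR's quasi-likelihood test), and part of its exons is shared with the same-strand gene AL713999.1. The line's own markers moved with the group, and their part in the values below was not tested. VIM (vimentin) fell from 718 to 417 CPM and SPARC from 1.55 to 0.393 CPM, KRT8 and KRT18 (the luminal keratins 8 and 18) rose from 426 to 825 and from 131 to 266 CPM, and CD44 fell by 0.16 on the log2 scale (edgeR adjusted p from 1.05e-24 to 0.00013 over the 5 genes). The leukocyte markers CD3E and HLA-DRA were at 0 counts in all 6, while LYZ and CD163 did not exceed 2 counts in any. Of the 10 leukocyte markers, PTPRC (2, 6 and 10 counts in control, 21, 24 and 10 in shMUC1) and CD14 (70, 67 and 78 against 174, 196 and 92) rose. ITGAM, also tested, did not pass the test, with 8, 18 and 12 counts in control and 8, 0 and 10 in shMUC1 libraries. The summed level of the list went from 3.74 to 4.1 CPM over the control libraries to 6.18 to 8.78 CPM over the shMUC1 libraries, and its part in the values below was not tested. Of 6 endothelial and fibroblast markers, DCN and LUM were at 0, PECAM1 and COL1A1 fell, and the summed level went from 4.15 to 6.12 CPM to 2.6 to 3 CPM.

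Summed over the 10 genes, the level was 118, 123 and 122 CPM in the control libraries and 66.6, 70.9 and 68.5 CPM in the shMUC1 libraries. The group means were 121 ± 2.95 and 68.7 ± 2.18 CPM (SD, n = 3 each), and the 2 ranges lay apart. In bulk RNA, fewer cells that express a gene and less RNA per cell cannot be told apart. CSF1 made up 57.3% ± 2.75 of that sum in control and 43.2% ± 1.34 in shMUC1 libraries (SD, n = 3 each). Of the 8 genes that passed the low-count filter, 4 (CSF1, IL1B, CXCL8 and CXCL1) were lower at an adjusted p under 0.05, beside 23.6% of all 15355 tested genes that were lower and 25.2% that were higher. CSF1, CXCL8 and CXCL1 also passed a fold change over 2, which 5.95% of all tested genes did in either direction. The same 4 genes had no overlap in CPM between the groups, as had 54.8% of all tested genes. The median log2 fold change over the 8 genes was -1.0, and it was 0.00058 over all tested genes. Because these genes were selected on this contrast, nothing is read from their counts against those shares.

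**Figure D1:**
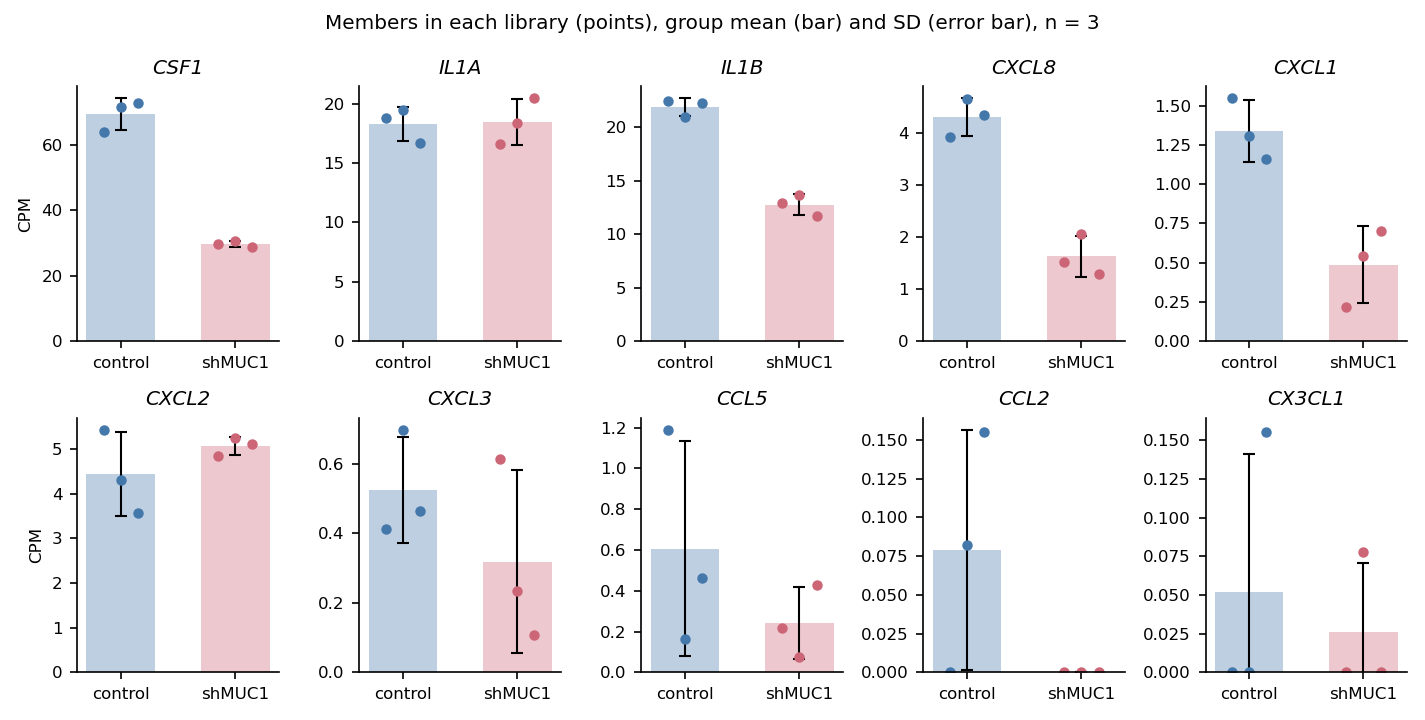
Level of each of the 10 genes (CPM, linear axis from 0, a scale of its own in each panel) in the 3 control and 3 shMUC1 libraries, with points for libraries, bars for the group mean and error bars for the SD. CSF1, IL1B, CXCL8 and CXCL1 had every shMUC1 library below every control library, whereas the points of the other genes overlapped or were at or near 0.

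CSF1 (macrophage colony-stimulating factor, chr1:109910242-109930992, plus strand, GRCh38) was the most abundant of the 10 genes in control cells. It had 1401, 1747 and 1879 counts in the control libraries, or 63.9, 71.7 and 72.8 CPM. In the shMUC1 libraries it had 820, 790 and 534 counts, or 29.7, 30.7 and 28.7 CPM. The 3 shMUC1 values lay within 2 CPM of each other and all were below the lowest control value. The mean was 69.5 ± 4.84 CPM in control and 29.7 ± 0.986 CPM in shMUC1 cells (SD, n = 3 each). Its log2 fold change was -1.23 (SE 0.0608), or 0.428 of the control level.

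The interleukin-1 genes, which lie next to each other on chromosome 2, differed from one another. IL1B (chr2:112829751-112836903, minus strand), a cytokine whose precursor is cut by caspase-1, had 22.5, 21 and 22.3 CPM in control and 12.9, 13.7 and 11.7 CPM in shMUC1 libraries. Its counts were 493, 511 and 575 against 357, 352 and 217. The groups did not overlap, and the mean went from 21.9 ± 0.813 to 12.8 ± 1.01 CPM (SD, n = 3 each), and the log2 fold change was -0.77 (SE 0.0923). IL1A (chr2:112773915-112784590, minus strand), an alarmin that is active as its precursor, had 18.8, 19.5 and 16.7 CPM in control and 16.6, 18.4 and 20.5 CPM in shMUC1 libraries. The groups overlapped over most of their range, with means of 18.3 ± 1.43 and 18.5 ± 1.98 CPM (SD, n = 3 each), and the log2 fold change was 0.0056 (SE 0.094). The ratio of IL1A to IL1B CPM was taken within each library and was not corrected for length. It ranged from 0.751 to 0.928 in control and from 1.28 to 1.76 in shMUC1 cells. The ranges lay apart, but which gene was higher in control depended on the length used.

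The 4 neutrophil-attracting CXC chemokines also did not move alike. CXCL8 (interleukin-8, chr4:73740506-73743716, plus strand) had 86, 113 and 112 counts in the control libraries and 42, 53 and 24 in the shMUC1 libraries. Its level was 3.92, 4.64 and 4.34 CPM in control and 1.52, 2.06 and 1.29 CPM in shMUC1 cells, with no overlap. The mean went from 4.3 ± 0.36 to 1.62 ± 0.394 CPM (SD, n = 3 each), and the log2 fold change was -1.39 (SE 0.222).

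CXCL1 (chr4:73869393-73871242, plus strand) had 34, 32 and 30 counts in control and 6, 14 and 13 in shMUC1 libraries, or 1.55, 1.31 and 1.16 CPM against 0.217, 0.544 and 0.699 CPM. The groups did not overlap, but the shMUC1 values were spread over more than a 3-fold range. The log2 fold change was -1.50 (SE 0.418), and it was -1.11 without shMUC1 replicate 1, the library with the lowest value. CXCL2 (chr4:74097035-74099293, minus strand), by contrast, had 119, 105 and 92 counts in control and 134, 135 and 95 in shMUC1 libraries. Its level of 5.43, 4.31 and 3.56 CPM in control overlapped with 4.85, 5.24 and 5.11 CPM in shMUC1 cells, and the log2 fold change was 0.20 (SE 0.171). CXCL3 (chr4:74036589-74038807, minus strand) was near the limit of detection, at 9, 17 and 12 against 17, 6 and 2 counts, with overlapping groups and a log2 fold change of -0.63 (SE 0.544). Without shMUC1 replicate 1 that value was -1.53, so the estimate for CXCL3 turned on 1 library.

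The ratio of CXCL2 to CXCL8 CPM was between 0.821 and 1.38 in the control libraries and between 2.55 and 3.96 in the shMUC1 libraries. The ratio of CXCL2 to CXCL1 CPM was between 3.07 and 3.5 in control and between 7.31 and 22.3 in shMUC1 libraries. Both ratios lay apart between the groups. CXCL1, CXCL2 and CXCL3 are near-identical in places. Of 1247 stretches of 50 bases in the transcripts of CXCL1, 60 (4.81%) also occur in CXCL2, and of 1546 in CXCL2, 139 (8.99%) also occur in CXCL3. Reads in those stretches could be split or dropped in counting, so the counts of CXCL1, CXCL2 and CXCL3 are uncertain to that extent.

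The promoters of the 4 CXC genes are shown because the groups lay apart for CXCL8 and CXCL1 and overlapped for CXCL2 and CXCL3. Differences in fold change between the 4 genes were not tested. Each is the 250 bases before the RefSeq transcription start (GRCh38.p14), 5′ to 3′ on the strand of the gene, with matches to the NF-kB-type motif GGNNNTTCC or the AP-1 motif TGANTCA (both searched on both strands) in capitals.
CXCL1 (chr4:73869143-73869392, plus strand): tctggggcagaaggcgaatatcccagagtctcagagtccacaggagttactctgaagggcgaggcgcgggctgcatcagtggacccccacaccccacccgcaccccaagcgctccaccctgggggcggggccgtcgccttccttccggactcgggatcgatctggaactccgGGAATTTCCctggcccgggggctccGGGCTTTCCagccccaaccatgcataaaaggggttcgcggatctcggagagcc
CXCL2 (chr4:74099196-74099445, minus strand): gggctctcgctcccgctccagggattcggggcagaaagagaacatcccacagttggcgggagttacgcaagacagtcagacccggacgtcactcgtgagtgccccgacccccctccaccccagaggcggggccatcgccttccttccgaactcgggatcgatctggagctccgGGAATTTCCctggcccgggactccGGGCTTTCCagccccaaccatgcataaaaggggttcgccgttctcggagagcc
CXCL3 (chr4:74038690-74038939, minus strand): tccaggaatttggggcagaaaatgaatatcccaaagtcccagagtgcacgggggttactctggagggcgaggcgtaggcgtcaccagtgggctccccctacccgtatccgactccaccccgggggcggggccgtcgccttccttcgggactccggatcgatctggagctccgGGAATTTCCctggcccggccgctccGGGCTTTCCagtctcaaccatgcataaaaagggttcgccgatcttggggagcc
CXCL8 (chr4:73740319-73740568, plus strand): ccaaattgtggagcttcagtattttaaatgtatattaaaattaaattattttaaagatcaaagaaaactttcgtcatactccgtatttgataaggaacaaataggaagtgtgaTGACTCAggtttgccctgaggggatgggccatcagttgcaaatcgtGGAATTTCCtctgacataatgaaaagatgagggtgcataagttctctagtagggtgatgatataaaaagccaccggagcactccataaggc
CXCL1, CXCL2 and CXCL3 each held a pair of GGNNNTTCC matches, GGAATTTCC from base 77 or 78 before the start and GGGCTTTCC from base 53 before the start. CXCL8 held GGAATTTCC from base 91 and TGACTCA from base 137 before the start. In the same 250 bases before the start, 17.1% of the 35116 promoters of the RefSeq table held GGNNNTTCC and 6.57% held TGANTCA. CXCL1, whose groups lay apart, and CXCL2, whose groups overlapped, thus carry the same words in nearly the same places. In the same window IL1A held TGANTCA but no GGNNNTTCC match, and IL1B held neither. A match is a description of the letters, not a bound site.

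The AU-rich element TTATTTATT was looked for in the 3' UTRs, since CXCL and IL1 transcripts are known for short half-lives. Each line gives the first match (in capitals) with 9 bases on each side in the GENCODE release 29 transcripts for the 5 genes that passed the low-count filter and carried one.
CXCL1: gtcttctatTTATTTATTtattcatta
CXCL2: gtcttctatTTATTTATTtatttattt
CXCL3: tgtcagttgTTATTTATTcaaattatc
CXCL8: tgtaaagtaTTATTTATTtgaatctac
IL1B: cttccctatTTATTTATTtatttgttt
CXCL2 held 5 such words, CXCL1 held 3, IL1B held 2, and CXCL3 and CXCL8 held 1 each. CSF1, IL1A and CCL5 held none. Among 13023 tested genes with an annotated 3' UTR, 9.68% held the word. The shorter core ATTTA, which lies within TTATTTATT, was in 74.6% of those genes. The longer word was in CXCL8, CXCL1 and IL1B, which were lower, and in CXCL2 and CXCL3, whose groups overlapped. It was absent from CSF1, which was lower, and from IL1A and CCL5, whose groups overlapped. Its part in the differences was not tested.

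CCL5 (RANTES, which attracts T cells and monocytes, chr17:35871491-35880793, minus strand) had 26, 4 and 12 counts in control and 6, 2 and 8 in shMUC1 libraries. The control values differed from each other by more than 6-fold, the groups overlapped, and the log2 fold change of -1.37 (SE 0.632) became -0.47 without control replicate 1. CCL2 (the monocyte attractant MCP-1, chr17:34255218-34257203, plus strand) had 0, 2 and 4 counts in control libraries and 0 in each shMUC1 library, where a count of 0 allows up to 0.109 to 0.161 CPM. CX3CL1 (fractalkine, chr16:57372458-57385048, plus strand) had 0, 0 and 4 counts in control and 0, 2 and 0 in shMUC1 libraries. For these 2 genes a difference was not detectable at this depth.

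**Figure D2:**
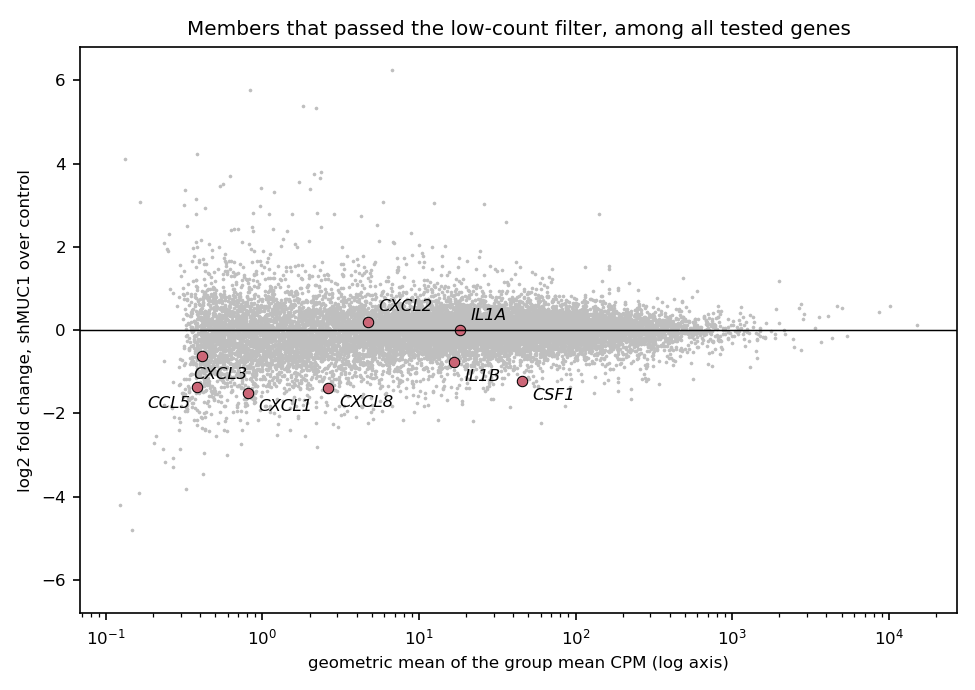
The 8 genes that passed the low-count filter (coloured, named) among all 15355 tested genes (grey), by geometric mean of the group mean CPM (log axis) and log2 fold change of shMUC1 over control. CSF1 lay at -1.23, and IL1A and CXCL2 lay near 0. CXCL3 and CCL5 lay where fold changes are widely spread at the low end of the axis.

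Set per kilobase of exon, the order of levels in control cells was CSF1 (12.8 ± 0.893 CPM per kb), IL1A (8.64 ± 0.675), IL1B (7.08 ± 0.263), CXCL2 (2.96 ± 0.626), CXCL8 (1.89 ± 0.158), CXCL1 (1.04 ± 0.151), CCL5 (0.4 ± 0.347) and CXCL3 (0.236 ± 0.0688), each with SD and n = 3. Neighbours in this order lay apart by more than their SDs, except CCL5 and CXCL3. In shMUC1 cells IL1A came first, at 8.71 ± 0.933 CPM per kb, ahead of CSF1 at 5.48 ± 0.182, IL1B at 4.12 ± 0.327 and CXCL2 at 3.38 ± 0.133 (SD, n = 3). CXCL8 (0.714 ± 0.173) and CXCL1 (0.375 ± 0.19) were within their SDs of each other there, as were CXCL1, CCL5 (0.16 ± 0.117) and CXCL3 (0.144 ± 0.119). When the longest transcript was taken as the length instead of all exons, IL1B came before IL1A in control and before CSF1 in shMUC1 cells, while CSF1 remained first in control and IL1A first in shMUC1.

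The members of 2 gene clusters made it possible to look at their neighbours. The CXC cluster on chromosome 4 runs from CXCL8 through CXCL6, PF4V1, CXCL1, PF4, PPBP, CXCL5 and CXCL3 to CXCL2. CXCL6, another ligand of CXCR1 and CXCR2, had 2, 12 and 10 counts in control and 2, 4 and 0 in shMUC1 libraries, and PF4V1, PF4, PPBP and CXCL5 had none in any library. MTHFD2L, the next protein-coding gene after CXCL2, rose by 0.35 on the log2 scale (SE 0.069, adjusted p = 4.98e-05, edgeR). Beyond it, the EGF receptor ligand genes EREG and AREG went opposite ways, with the start of AREG 704.6 kb from that of CXCL8. EREG fell from 107 ± 6.85 to 76.1 ± 5.12 CPM (edgeR adjusted p = 1.23e-10), whereas AREG rose from 0.578 ± 0.318 to 7.92 ± 1.49 CPM (SD, n = 3 each), and the log2 fold change was 3.74 (SE 0.248, edgeR adjusted p = 2.09e-15). In the IL1 cluster on chromosome 2, CKAP2L next to IL1A fell by 0.50 on the log2 scale (edgeR adjusted p = 2.02e-12) and PSD4, the next protein-coding gene past IL1RN, rose by 1.06 (edgeR adjusted p = 1.58e-13).

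**Figure D3:**
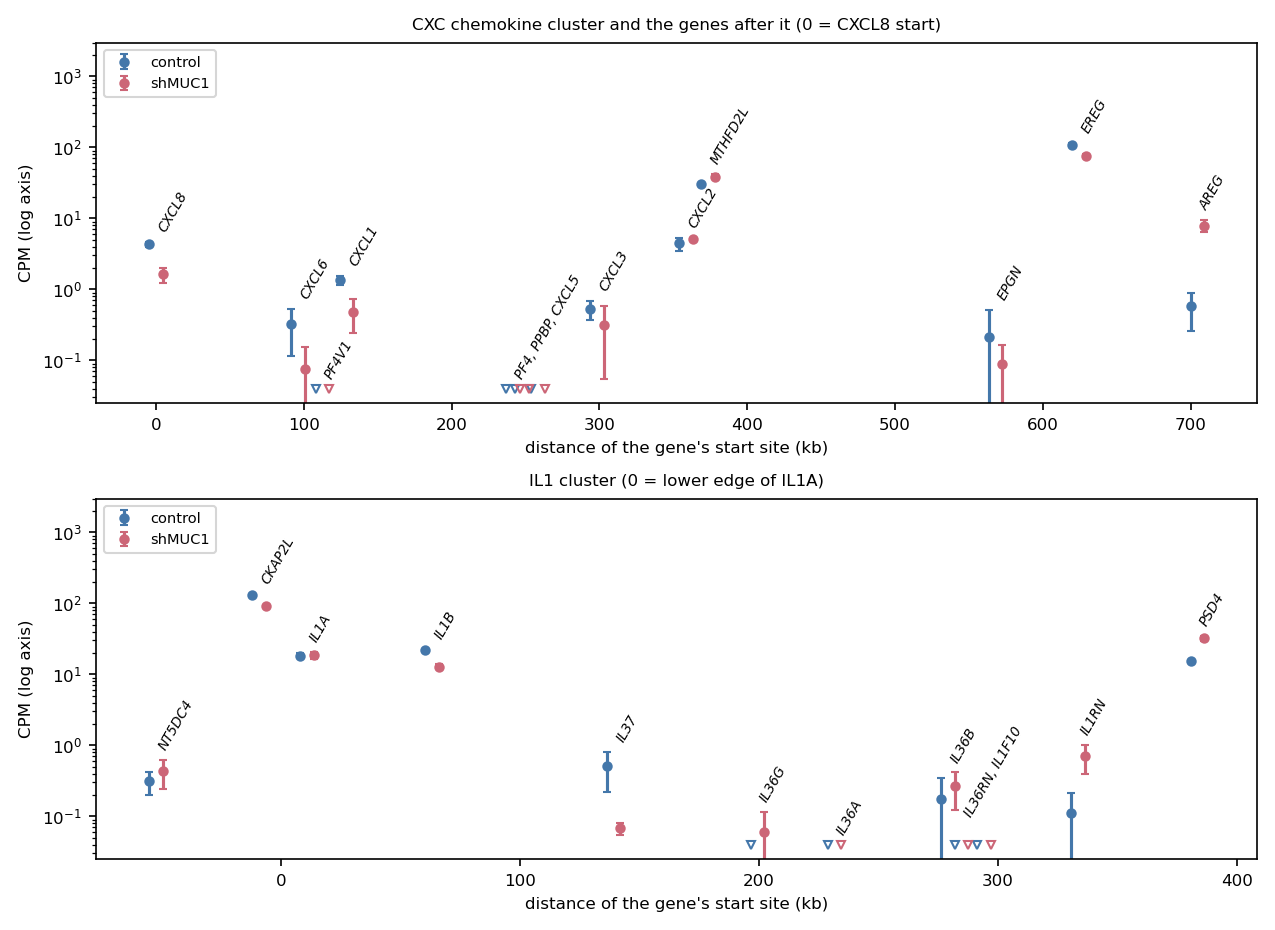
Mean level (CPM, log axis) with SD (n = 3) of genes along the CXC cluster (upper panel) and the IL1 cluster (lower panel) in control and shMUC1 cells, by distance of each gene's start site in kb, with the groups set slightly apart. Open triangles mark group means under 0.04 CPM, at 0 or nearly so, and bars that leave the axis reach below it. CXCL8 and CXCL1 were lower in shMUC1 cells while CXCL2 and MTHFD2L were not.

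The other ligands of these families were examined next, each gene tested with edgeR's quasi-likelihood test over all 15355 genes. Of all those genes, 25.2% were higher and 23.6% lower. Of 39 other chemokines, 25 had 0 counts in all libraries and 3 passed the low-count filter. CXCL14, an epithelial chemokine often lost in tumors, was the most abundant of these in control cells, at 206, 270 and 296 counts in control and 62, 54 and 56 in shMUC1 libraries. It fell from 10.6 to 2.45 CPM, a log2 fold change of -2.14 (SE 0.159, adjusted p = 4.28e-14), though it overlaps AC034206.1 and SLC25A48 on the opposite strand. CXCL16 fell from 8.01 to 6.3 CPM (log2 fold change -0.34, SE 0.133, adjusted p = 0.033), a call that was lost with DESeq2, with no low-count filter, and without control replicate 2 or 3 or shMUC1 replicate 2 or 3 (adjusted p from 0.0583 to 0.109). CCL20, the ligand of CCR6, rose from 11, 12 and 12 counts to 44, 35 and 12, a log2 fold change of 1.33 (SE 0.414, adjusted p = 0.00758). That call was lost without shMUC1 replicate 1 (log2 fold change 1.07, adjusted p = 0.0809).

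Among 11 other colony-stimulating and myeloid growth factors, both genes that passed the filter rose. KITLG, the stem cell factor that binds KIT, had 34.8, 37.4 and 38.6 CPM in control and 72.1, 79.8 and 72.6 CPM in shMUC1 libraries, with no overlap. Its log2 fold change of 1.02 (SE 0.0574, adjusted p = 2.22e-17) was of the opposite sign to that of CSF1, and the ratio of CSF1 to KITLG CPM went from 1.83 to 1.92 in control libraries to 0.384 to 0.412 in shMUC1 libraries. VEGFA, the angiogenic factor that also attracts monocytes, rose from 33.5 to 49.9 CPM (log2 fold change 0.57, SE 0.0667, adjusted p = 4.15e-09). Both overlap a gene on the opposite strand. CSF2 and CSF3 (GM-CSF and G-CSF) had at most 2 counts in any library. MIF, which shares exons with AP000350.4 on the same strand, had 0 counts in every library. Reads in shared exons could be dropped in counting, so a 0 there does not show absence. The same holds for CCL14, CCL15 and ACKR1, also at 0 with exons shared on the same strand. Of 9 other IL1 family cytokines only IL18 passed the filter, and it rose from 26.1 to 30.8 CPM (log2 fold change 0.24, SE 0.0742, adjusted p = 0.00769), a call that was lost without control replicate 3 (0.18, adjusted p = 0.074).

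Among the receptors for the 10 ligands, CXCR1, CXCR2, CCR2 and the decoy receptor ACKR1 had 0 counts in all libraries. Of the 7 receptors that passed the filter, 4 rose, beside 25.2% of all tested genes. CX3CR1, ACKR2 and ACKR4 did not pass the test. CSF1R, the receptor of CSF1, had 2, 9 and 11 counts in control and 37, 43 and 37 in shMUC1 libraries. The groups did not overlap, and the level went from 0.296 to 1.67 CPM, a log2 fold change of 2.43 (SE 0.437, adjusted p = 1.43e-05). CSF1R is itself a myeloid gene, and the leukocyte markers CD14 and PTPRC rose in the same libraries. The leukocyte marker ITGAM did not rise (log2 fold change -1.02, edgeR adjusted p = 0.183). LYZ, CD163, CD3E and HLA-DRA were at or near 0. The IL1 receptor chains rose by less, IL1R1 from 48.9 to 60.2 CPM (log2 fold change 0.30, adjusted p = 2.8e-05) and IL1RAP from 45.5 to 53.3 CPM (0.23, adjusted p = 0.00276). The call of IL1RAP was lost without shMUC1 replicate 2 (0.16, adjusted p = 0.0534). SDC4, a heparan sulfate proteoglycan that binds chemokines, rose from 216 to 308 CPM (0.51, adjusted p = 1.39e-15).

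**Figure D4:**
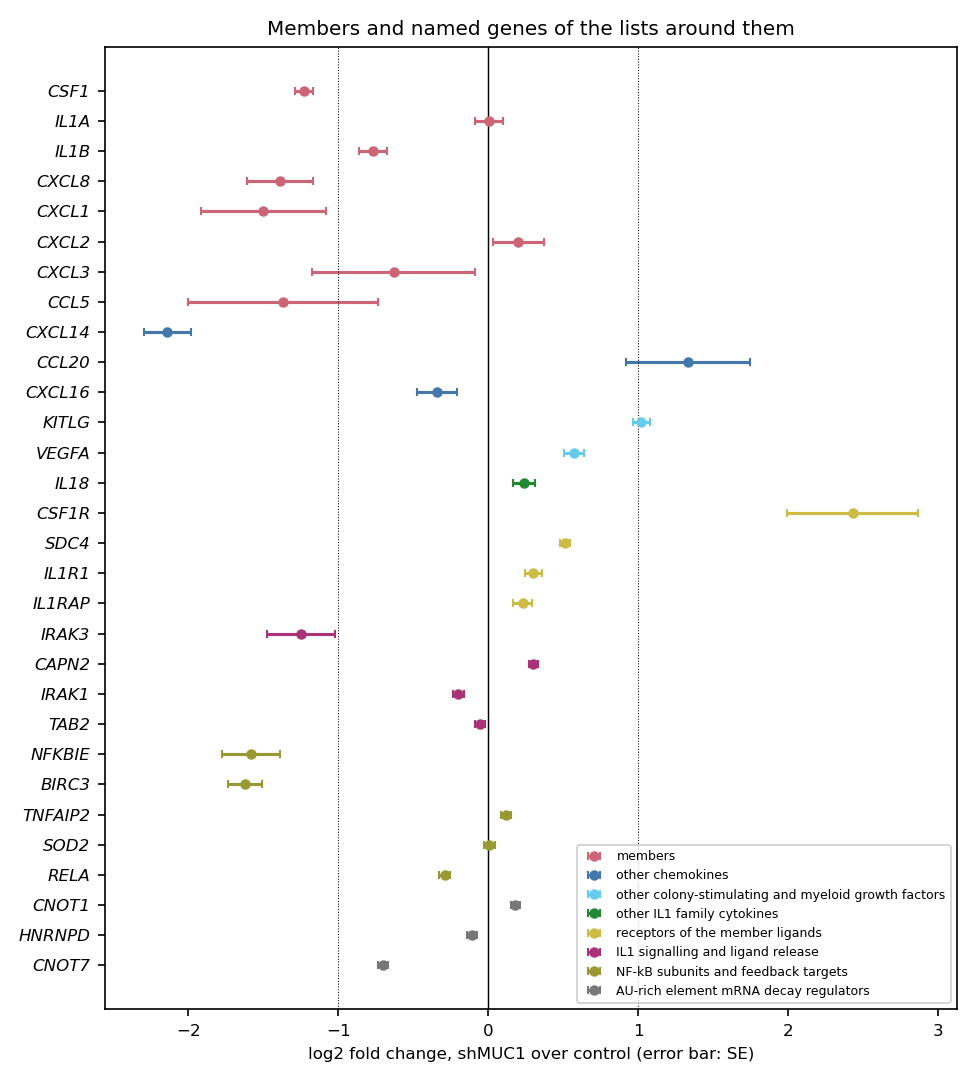
Log2 fold change of shMUC1 over control with SE for the 8 genes that passed the filter and for the named genes of the 7 lists around them, coloured by list, with dotted lines at a fold change of 2. CSF1, CXCL8, CXCL1 and CCL5 lay beyond -1 with CXCL14, IRAK3, NFKBIE and BIRC3, and CSF1R, CCL20 and KITLG lay beyond 1.

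Of 21 genes for IL1 signalling and ligand release, 18 passed the filter. Of these, 6 rose and 3 fell, beside 25.2% and 23.6% of all tested genes. IRAK3 (IRAK-M), an inhibitory member of the IRAK family, fell from 98, 129 and 82 counts to 50, 41 and 38, a log2 fold change of -1.25 (SE 0.225, adjusted p = 1.39e-05). It overlaps MIR6502 on the same strand. IRAK1, the kinase downstream of MYD88, fell from 371 to 323 CPM (log2 fold change -0.20, adjusted p = 2.04e-05), while IRAK4 rose from 12.5 to 20.1 CPM (0.69, adjusted p = 1.62e-07). The third fall was in MAP3K7 (TAK1), from 83.4 to 51.2 CPM (-0.71, adjusted p = 8.39e-14). CAPN2, a subunit of the calpain protease that processes the IL1A precursor, rose from 359 to 441 CPM (0.30, adjusted p = 3.82e-10). The other rises were in MYD88, TRAF6, TAB3 and TOLLIP, by 0.24, 0.33, 0.23 and 0.31 on the log2 scale. TAB2 had a log2 fold change of -0.055 with an adjusted p of 0.197, or 0.0497 without control replicate 3. CASP1 and NLRP3, which serve IL1B maturation, had at most 4 counts in any library and were not tested.

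Of 20 NF-kB subunits and feedback targets, all passed the filter, 7 rose and 9 fell, beside 25.2% and 23.6% of all tested genes. Their median log2 fold change was -0.19, and it was 0.00058 over all tested genes. BIRC3 (cIAP2), an apoptosis inhibitor and NF-kB target, had 18.1, 21.1 and 18.3 CPM in control and 6.8, 6.21 and 5.54 CPM in shMUC1 libraries. Its log2 fold change was -1.62 (SE 0.113, adjusted p = 7.91e-15). NFKBIE, which encodes the inhibitor IkB-epsilon, had 101, 170 and 175 counts in control and 54, 53 and 40 in shMUC1 libraries, a log2 fold change of -1.58 (SE 0.193, adjusted p = 1.04e-08). RELA, the p65 subunit, fell from 167 to 136 CPM (-0.29, adjusted p = 2.8e-08). NFKBIA, NFKB2, RELB and TRAF1 also fell, by 0.58, 0.63, 0.52 and 0.95 on the log2 scale, whereas TNFAIP3 (A20), REL and BCL3 rose by 0.21, 0.28 and 0.76. The groups of TNFAIP3 overlapped in CPM. TNFAIP2 rose by 0.12 (adjusted p = 0.00329), and SOD2 had a log2 fold change of 0.0067 with an adjusted p of 0.902.

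Of 12 regulators of AU-rich element decay, 5 rose and 6 fell, and KHSRP did not pass the test. ZFP36 and ZC3H12A (regnase-1), which both promote decay of cytokine mRNAs, rose by 0.51 and 0.78 on the log2 scale (adjusted p = 7.89e-06 and 1.46e-07). ZFP36L1 and ZFP36L2, of the same family as ZFP36, fell by 0.37 and 0.16 (adjusted p = 9.7e-08 and 0.0028). CNOT7, a deadenylase of the CCR4-NOT complex, fell from 315 to 194 CPM (-0.70, adjusted p = 3.08e-19), and its scaffold CNOT1 rose from 425 to 479 CPM (0.18, adjusted p = 6.73e-06). HNRNPD (AUF1) fell by 0.11 (adjusted p = 0.00685), but the adjusted p was 0.066, 0.0616 and 0.0565 without control replicate 1, shMUC1 replicate 2 and shMUC1 replicate 3. Over the 7 lists, 26 of 63 tested genes rose and 20 fell, and 7 passed a fold change over 2, beside 25.2%, 23.6% and 5.95% of all tested genes.

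The genes whose profile over the 6 libraries was most like that of CSF1 and CXCL8 were sought among 11128 genes averaging 100 counts or more, by the root mean square difference of centred log2(CPM + 0.5). Closest to CSF1 were NOTCH3 (0.0515), ZNF697 (0.0617) and the p38-activated kinase gene MAPKAPK2 (0.0597). NOTCH3, a Notch receptor, went from 21.1, 23.2 and 21.5 CPM in control to 9.3, 9.82 and 8.82 CPM in shMUC1 libraries. MAPKAPK2 went from 119, 118 and 124 CPM to 52.9, 54.9 and 52.8 CPM. Closest to CXCL8 were the long non-coding RNA LUCAT1 (0.0716), the phosphodiesterase gene PDE4B (0.0773) and the collagen gene COL16A1 (0.0929). LUCAT1 went from 9.72, 10.8 and 9.8 CPM to 3.8, 4.54 and 3.49 CPM. As for CXCL8, its lowest value was in shMUC1 replicate 3 and its highest shMUC1 value in replicate 2. The search selected for such likeness, so nothing is read from it.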

How the data were processed

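RNA-seq libraries were made from total RNA with a stranded mRNA kit. Raw counts were deposited with 1 row per gene symbol and 1 column per library. The submitters' processing notes name CASAVA 1.8.2, STAR 2.7.9a, featureCounts, DESeq2 1.24.0 and GRCh38.p7, whereas the strand setting and the counting of pairs are not given in the sources used here. Of values from 1 to 20, 68.8% to 70.5% were even in every library, so intervals from counting error would be too narrow. Floors of 3 counts cover counting error only.

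Counts were tested with edgeR 4.0.16 (R 4.3.3), two-sided, with TMM scaling, filterByExpr, the quasi-likelihood test on group alone, a prior count of 0.125 and Benjamini-Hochberg adjustment over 15355 genes. The chi-square per degree of freedom between libraries of a group was 2.79 to 5.55, and 38.0 to 51.6 between groups. The 10 genes, the 7 lists, the motifs and the tests were chosen with earlier results of these data known. Of the listed genes, 1 is not reported here. Genes named were the 10 genes, MUC1, list genes past both thresholds (0.05 for the adjusted p, 2 for the fold change), the 3 most abundant tested genes of each list, and the 3 genes most like CSF1 and CXCL8. Others were named after their values were seen, namely the neighbours in the clusters, marker genes, genes at or near 0 counts, and the further IL1 signalling, NF-kB and decay genes. Positions and 3' UTRs came from GENCODE release 29, and promoters from RefSeq, which matched 6 of the 10 genes. Alternatives were DESeq2 1.42.0 and its size factors, library totals only, limma-voom (limma 3.58.1), a filter at a mean of 50 counts, no filter, a replicate block, halved counts, a prior count of 2 and each library left out in turn. The code was tested on simulated data.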

Additional observations from a re-analysis of the deposited data

How the results depend on the processing

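With a fold change over 2 added to the adjusted p, 339 genes were higher and 575 lower, against 3866 and 3617. CSF1 stayed between -1.28 and -1.20 and IL1B between -0.82 and -0.72 on the log2 scale under 15 alternatives, whereas IL1A ran from -0.071 to 0.084 and CXCL2 from 0.048 to 0.37. Leaving out single libraries gave -1.81 (without shMUC1 replicate 3) to -1.11 (without shMUC1 replicate 1) for CXCL1, -1.59 (without shMUC1 replicate 2) to -1.26 for CXCL8, -1.53 (without shMUC1 replicate 1) to -0.29 for CXCL3, and -1.95 (without shMUC1 replicate 3) to -0.47 (without control replicate 1) for CCL5. The filter at a mean of 50 counts gave no value for CXCL1, CXCL3, CCL5, CCL20 and CSF1R, and halved counts gave none for CXCL3, CCL5 and CCL20. For MUC1 and the 22 named list genes, 324 of 342 values kept direction and call, 12 lost the call, 1 gained it and 5 turned. The turned values were all of SOD2, at -0.015 with library totals only, -0.016 under the filter at a mean of 50 counts, and as low as -0.017 in leave-one-out fits, whose highest value was 0.058. No scaling moved the median of all genes by more than 0.1. Depth limited CCL2, CX3CL1, CXCL3 and CCL5, with a floor of up to 0.161 CPM.

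No pairing by replicate number was visible. The deviations of control and shMUC1 libraries with the same number correlated at 0.0049, -0.032 and -0.038, and those with unlike numbers at -0.012 to 0.046. These values cannot show whether the cultures were grown in pairs. The replicate block gave 3885 higher and 3591 lower genes, and 26 and 20 among the list genes. In that fit CSF1 had a log2 fold change of -1.22, IL1B -0.78, CXCL8 -1.40 and CXCL1 -1.52. The block changed the call of none of the 23 named genes (the block fit gave CXCL16, the nearest to the threshold, an adjusted p of 0.0379).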

Other observations

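Genes of the same families that did not pass the low-count filter are given as values, chosen after they were seen. Some were tested under the 15 alternatives. There, 1 to 2 other IL1 family cytokines were called higher and 0 to 1 lower. Of the other colony-stimulating and myeloid growth factors, 0 to 1 were called lower. Of the other chemokines, 0 to 1 were called higher and 1 to 3 lower. A lack of overlap between the groups was also found in 54.8% of all tested genes. IL34, another ligand of CSF1R, had 11, 3 and 22 counts in the control libraries and 1, 2 and 0 in the shMUC1 libraries. Every shMUC1 library lay below every control library, but the nearest values were 3 and 2 counts, at the floor of 3 counts. IL37, an anti-inflammatory member of the IL1 family that lies between IL1B and IL1RN, had 9, 7 and 22 counts in control and 2, 2 and 1 in shMUC1 libraries. IL1RN, which encodes the IL1 receptor antagonist, had 4, 0 and 4 counts in control and 10, 20 and 18 in shMUC1 libraries, with no overlap. CXCL12, the ligand of CXCR4, had 10, 4 and 14 counts in control and 0, 2 and 2 in shMUC1 libraries.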
